A study of Mus musculus with 9 samples.

Results

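The wild-type retina was described from 3 of the 9 RNA-Seq libraries of a study on an *Rbpms*-CreERT2 knock-in mouse line. These are the libraries with the genotype +/+, on the C57BL/6J background, labelled as control retinas and collected at P42 (postnatal day 42). They carry neither the CreERT2 allele nor any other engineered allele named in the labels. The other 6 libraries, from knock-in animals, were not compared with them. Each library was made from a pair of whole retinas, from polyadenylated RNA, with a kit that keeps the strand. Replicates are libraries with separate labels. Each value is in TPM, the abundance of transcripts in each library, which corrects for gene length and scales every library to a total of 1000000, so levels can be compared between genes of 1 library. Where a gene name had several rows, its TPM were added up, which gave 25239 genes in each library. No genes were tested, because a single genotype holds no comparison, and spread is given as the SD or the coefficient of variation (CV, the SD in percent of the mean) over the 3 libraries.

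The retina turns light into nerve signals through a chain of cell classes. Rod photoreceptors serve dim light and cone photoreceptors bright light and colour. Light activates an opsin, the opsin activates the G protein transducin, transducin activates a phosphodiesterase, and the fall of cyclic GMP closes a cation channel in the outer segment. Bipolar cells carry the signal to retinal ganglion cells (RGCs), whose axons form the optic nerve, while horizontal and amacrine cells act sideways and Müller glia span the tissue. In a homogenate of the whole tissue, the level of a marker mixes the number of cells of a class with the RNA in each cell, and fewer cells cannot be told apart from less RNA per cell.

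The libraries were of similar depth. The deposited coverage (reads over each base) behind 1 TPM was 1.26, 1.39 and 1.20 in replicates 1, 2 and 3, and 15158, 15070 and 15192 genes reached 1 TPM. The labels give no sex for these animals. *Xist*, the RNA that coats the inactive X chromosome, stood at 571, 517 and 516 TPM, and the means of 4 Y-linked genes were 0.0745 TPM or less. The 5 markers chosen for the check of the tissue were all present. *Gnat1* and *Sag* of rods ranked 2 and 3 of all genes, *Glul* of Müller glia ranked 13, *Pcp2* of bipolar cells 185 and *Thy1* of RGCs 371.

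The transcriptome was led by the rod. *Gnat1*, the alpha subunit of rod transducin, had 13355, 13380 and 14487 TPM in replicates 1, 2 and 3. It was highest in replicate 3. *Sag*, the rod arrestin that ends the signal of the light-activated opsin, came next with 5929, 5789 and 5109 TPM, and it was lowest in replicate 3. The highest 3 genes held 4.07% of all TPM and the highest 10 held 7.15%. All 10 genes of highest mean were also the highest 10 in each of the 3 libraries, and 96 of the highest 100 by the mean were among the highest 100 of each library.

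Of the 30 highest genes, 8 belong to the rod list and 9 to the list of genes shared by rods and cones. The other members of the cascade near the top were *Pde6g* (4537 ± 157 TPM, SD, n = 3), the inhibitory subunit of the rod phosphodiesterase, its catalytic subunits *Pde6a* (2276 ± 143) and *Pde6b* (2186 ± 67.3), and *Gngt1* (3002 ± 277), the gamma subunit of rod transducin. *Gnb1*, the beta subunit that rod transducin shares with other G proteins, had 4888 ± 126 TPM. *Prph2* (5050 ± 203 TPM) and *Rom1* (4102 ± 173 TPM) encode the tetraspanins of the disc rim. *Pdc*, phosducin, which binds transducin subunits, had 4565 ± 249 TPM. *Nrl*, the transcription factor that sets rod identity, reached 2307 ± 72.5 TPM and rank 20, while its partner *Nr2e3* had 1022 ± 31.2 TPM and *Crx*, the homeodomain factor of both photoreceptor types, 1112 ± 20.9 TPM.

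Enzymes of glycolysis held 3 of the remaining places. *Aldoa* (3906 ± 201 TPM), *Pkm* (3816 ± 79.8 TPM) and *Eno1* (3396 ± 238 TPM), ranked 9, 10 and 11. All 19 genes of the list for glycolysis and lactate exceeded 1 TPM, 8 of them were among the highest 100 genes, and the list held 2.14 ± 0.0736% of TPM. *Glul*, the glutamine synthetase of Müller glia, had 3199, 3269 and 2887 TPM and was the only gene of its list among the highest 30. The 9 genes of the highest 30 that are in none of the lists included *Gnb1*, *Ubb*, *Eef1a1*, *Tma7*, *Snap25*, *Ckb*, *Mgarp* and *Hsp90aa1*. *Snap25* (2051 ± 95.8 TPM) is part of the machinery of vesicle release and *Ckb* (2031 ± 99.2 TPM) is the creatine kinase of brain.

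**Figure D1:**
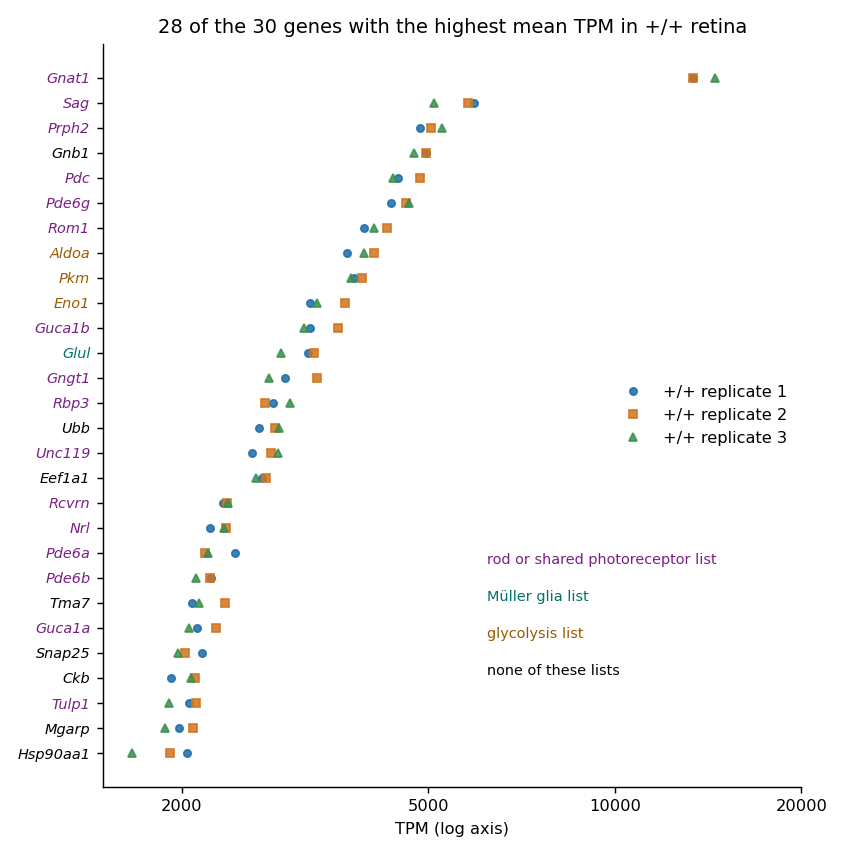
TPM (horizontal log axis) of 28 of the 30 genes with the highest mean, one gene per line, with 1 point for each +/+ library and gene names coloured by list. *Gnat1* stands apart, between 13355 and 14487 TPM, while *Sag* and the lower genes stay at or under 5929 TPM.

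Below the leading genes the abundance was spread widely. Of the 25239 genes, 6020 were listed at 0 in all 3 libraries, 15153 had a mean of at least 1 TPM, 10865 of at least 10, 2098 of at least 100 and 71 of at least 1000. The 71 genes above 1000 TPM held 17.3% of TPM and the 2098 genes above 100 held 63.2%. A share of 50% of the total was reached with 1062 genes, 75% with 3564 and 90% with 6823. Protein-coding genes held 96.9 ± 0.132% of TPM. Long noncoding RNAs held 1.81 ± 0.0277% and genes typed as microRNA 0.395 ± 0.00966%. Rows of microRNA genes can hold reads of a host gene, as described below for *Mir3064*, so the latter share is not the level of microRNAs. None of the 13 mitochondrially encoded protein genes has a row, so their RNA was not analysed here and does not enter the total.

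Promoters are shown for 4 of the highest photoreceptor genes because they share a short motif. CRX and the related factor OTX2 bind sequences with the core TAATCC, and this core was searched on both strands of the 250 bases before the start of each gene, with the core chosen after the ranking was known. The sequences are those of RefSeq, build GRCm38.p6, which is the assembly of mm10, and lie before the most upstream annotated start of a gene. It was present in 4 of 9 rod genes with a sequence, in 8 of 20 genes of the shared photoreceptor list, in 2 of 7 cone genes, in 2 of 9 Müller genes, in 2 of 13 bipolar genes, in 2 of 15 amacrine genes and in 0 of 9 RGC genes. Among all 18651 genes with a sequence, 1125 held it (6.03%). The share was 23.8% of the 21 genes with a sequence among the highest 30 and 18.1% of 72 among the highest 100. It was 7.5% of 720 at ranks 101 to 1000 and 5.08% of 10874 other genes with at least 1 TPM. Below 1 TPM it was higher again, 7.24% of 6985 genes. The highest 30 are part of the highest 100. Of the 5 genes with the core among the highest 30, 4 are in the rod and shared photoreceptor lists, so these shares are not separate from those of the lists. A match is a description of these letters, and binding was not measured. The table of sequences held no entry for *Gnat1*. The promoters of *Sag* (chr1:87803430-87803679, plus strand), *Gngt1* (chr6:3993758-3994007, plus strand), *Rbp3* (chr14:33953753-33954002, plus strand) and *Guca1a* (chr17:47400607-47400856, minus strand) are written below from 5′ to 3′ on the strand of the gene, each ending at the base before the start, with the core and its reverse complement in capitals.
Sag: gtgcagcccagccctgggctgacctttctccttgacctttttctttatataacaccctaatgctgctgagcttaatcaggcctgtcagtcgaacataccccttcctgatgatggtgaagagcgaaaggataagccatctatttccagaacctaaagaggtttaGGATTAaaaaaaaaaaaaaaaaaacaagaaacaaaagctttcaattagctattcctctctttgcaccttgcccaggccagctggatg
Gngt1: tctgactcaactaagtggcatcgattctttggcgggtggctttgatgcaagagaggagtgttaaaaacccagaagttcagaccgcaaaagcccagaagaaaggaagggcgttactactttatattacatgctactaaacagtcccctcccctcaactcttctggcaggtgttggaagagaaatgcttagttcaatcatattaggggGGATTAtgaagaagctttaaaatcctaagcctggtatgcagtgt
Rbp3: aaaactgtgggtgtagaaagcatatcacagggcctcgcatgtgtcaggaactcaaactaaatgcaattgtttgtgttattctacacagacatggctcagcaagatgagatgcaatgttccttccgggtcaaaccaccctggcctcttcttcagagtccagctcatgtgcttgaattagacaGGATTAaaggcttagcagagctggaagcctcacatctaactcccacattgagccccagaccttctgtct
Guca1a: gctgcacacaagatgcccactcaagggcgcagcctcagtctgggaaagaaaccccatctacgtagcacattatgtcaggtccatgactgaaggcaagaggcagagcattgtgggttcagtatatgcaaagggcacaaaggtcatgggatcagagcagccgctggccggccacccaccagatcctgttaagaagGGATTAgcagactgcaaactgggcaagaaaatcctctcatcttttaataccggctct
All 4 hold the core as its reverse complement, GGATTA, with its first base 87, 44, 69 and 57 bases before the start. *Rbp3* (2839 ± 134 TPM) encodes the retinoid-binding protein of the space around the outer segments, and *Guca1a* (2146 ± 109 TPM) an activator of the guanylate cyclase that restores cyclic GMP.

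Marker lists gave each cell class a share of TPM. The 159 genes of the 12 cell-class lists held 11.7 ± 0.112% of TPM, and 10.3 ± 0.120% belonged to the 50 genes of the rod, cone and shared photoreceptor lists, which is 88.2 ± 0.482% of the sum over all classes. These sums depend on which genes a list holds and on how many, and they are not shares of cells. The rod list of 14 genes held 6.04 ± 0.115% and the shared photoreceptor list of 25 genes held 3.91 ± 0.0659%. The Müller list followed with 0.719 ± 0.0379% for 14 genes, then the cone list with 0.345 ± 0.0126% for 11 genes. The bipolar list (17 genes) ranged from 0.221% to 0.246% over the libraries and the RGC list (19 genes) from 0.227% to 0.236%, so these neighbours did not differ beyond their spread. The amacrine list of 16 genes held 0.130 ± 0.00248%.

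The lists of endothelium, horizontal cells, microglia, mural cells and astrocytes were lower than all of these. Endothelium held 0.0274 ± 0.00119% (11 genes) and horizontal cells 0.0134 ± 0.00104% (6 genes). Microglia (13 genes) ranged from 0.00880% to 0.00996% and mural cells (9 genes) from 0.00776% to 0.00945%, which overlap. The 4 astrocyte genes held 0.00599 ± 0.000913%. Without the highest member of each list, the order of horizontal cells and microglia turned, with 0.00415% and 0.00507%. Endothelium then held 0.0158%, mural cells 0.00309% and astrocytes, without *Gfap*, 0.00218%.

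**Figure D2:**
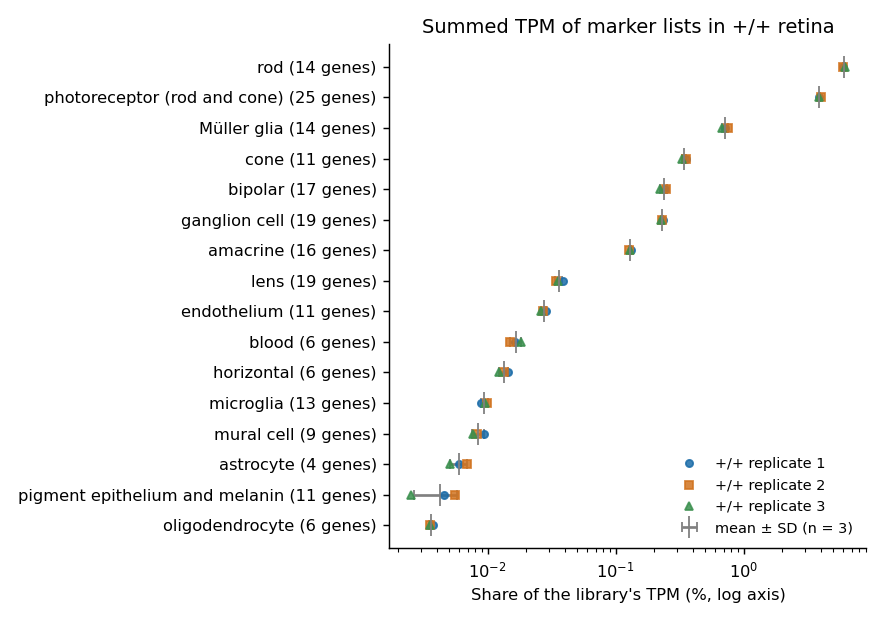
Summed TPM of each marker list in percent of the library total (horizontal log axis), with 1 point per +/+ library and a grey bar for the mean ± SD of 3 libraries; the number of genes in each list stands beside its name. Rod and shared photoreceptor lists lie at 3.87% to 6.16%, Müller glia and cones between 0.330% and 0.756%, and all lists of other tissues below 0.04%.

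The cone list contained the counterparts of the rod cascade. *Arr3*, cone arrestin, had the highest mean, with 641, 660 and 645 TPM, and the short-wavelength opsin *Opn1sw* had 641, 613 and 598 TPM. *Arr3* was above *Opn1sw* in replicates 2 and 3, and their levels were alike in replicate 1. The medium-wavelength opsin *Opn1mw* had 337, 329 and 329 TPM. *Opn1sw* exceeded *Opn1mw* in all 3 libraries, by a ratio of 1.86 ± 0.0431. The lowest members were the channel subunits *Cngb3* (16.1 ± 1.65 TPM) and *Cnga3* (12.5 ± 2.22 TPM). The nuclear receptor *Thrb*, which directs opsin choice in cones, had 45.3 ± 4.71 TPM.

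Ratios of rod to cone genes differed by component of the cascade. For the alpha subunit of transducin, *Gnat1* exceeded *Gnat2* 43.1-, 43.9- and 55.1-fold in replicates 1, 2 and 3. The gamma subunit gave a lower ratio, 13.2 ± 1.45 for *Gngt1* over *Gngt2*. The sum of *Pde6a* and *Pde6b* was 34.9 ± 0.120 times the level of *Pde6c*, the catalytic subunit of cones, whereas the inhibitory subunits *Pde6g* and *Pde6h* differed 8.57 ± 0.687-fold. The channel subunits gave the highest mean ratios, 74.9 ± 17.1 for *Cnga1* over *Cnga3* and 51.2 ± 7.77 for *Cngb1* over *Cngb3*, the latter within the range of the transducin alpha ratios in 2 of 3 libraries. Arrestin was near the lowest, with 8.65 ± 0.672 for *Sag* over *Arr3*. The ranges of the arrestin and inhibitory-subunit ratios overlap, while both stay below every value of the transducin gamma ratio.

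Among inner retinal neurons, the bipolar list was led by *Pcp2*, a regulator of G protein signalling in rod bipolar cells, with 570, 662 and 514 TPM. Its CV of 12.9% was above the 7.77% median of all genes. *Gng13* (239 ± 18.0 TPM) and *Trpm1* (207 ± 9.24 TPM), the transduction channel of ON bipolar cells, came next, and the calcium-binding protein *Cabp5* had 181 ± 22.9 TPM. *Grm6*, the glutamate receptor through which ON bipolar cells sense photoreceptors, had 140, 136 and 121 TPM. The lowest bipolar gene was *Nyx*, with 18.0 ± 0.975 TPM.

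The RGC list was led by *Nefl*, a neurofilament subunit, with 570, 542 and 563 TPM. *Thy1*, a surface glycoprotein of RGCs, had 342, 344 and 344 TPM, with a CV of 0.348%. *Sncg*, *Nefm* and *Tubb3* had 275 ± 15.3, 269 ± 25.01 and 163 ± 6.38 TPM. Further down the list, *Nrn1* and *Jam2* had 105 ± 1.87 and 101 ± 3.30 TPM, and the members named next were lower still. *Rbpms*, which encodes an RNA-binding protein used to mark RGCs and is the gene into which the study placed its CreERT2 allele in other animals, had 43.2, 38.4 and 43.4 TPM at rank 5503, and its relative *Rbpms2* had 31.8, 34.9 and 36.7 TPM. The POU-domain factors *Pou4f1*, *Pou4f2* and *Pou4f3* had 23.1 ± 0.737, 12.3 ± 0.533 and 6.70 ± 0.354 TPM. *Opn4*, melanopsin of the intrinsically photosensitive RGCs, was the lowest of the 19 with 5.36 ± 0.834 TPM.

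In the amacrine list, *Gad1* (287 ± 5.74 TPM) makes GABA, *Slc6a9* (274 ± 18.9 TPM) takes up glycine, and *Pax6* (278 ± 17.5 TPM) is a transcription factor of amacrine and other inner retinal cells. *Tfap2b* had 122 ± 5.94 TPM. Markers of small amacrine types were low, with *Chat* of starburst cells at 16.6 ± 2.29 TPM and *Th* of dopaminergic cells at 5.82 ± 1.06 TPM. In the horizontal list, only *Calb1*, which amacrine cells and RGCs also express, exceeded 20 TPM, with 100.8, 92.4 and 83.3 TPM. *Lhx1* and *Onecut1* had 7.51 ± 0.891 and 5.77 ± 0.641 TPM.

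Among Müller genes, *Apoe* (1258 ± 102 TPM), *Clu* (721 ± 54.9 TPM), *Dkk3* (660 ± 18.9 TPM) and *Rlbp1* (497 ± 14.6 TPM), the retinaldehyde-binding protein, followed *Glul*. The water channel *Aqp4* and the potassium channel *Kcnj10* had 83.0 ± 9.37 and 42.1 ± 3.74 TPM. *Gfap*, the filament of astrocytes and reactive Müller glia, had 38.6, 45.6 and 29.97 TPM. Most microglial genes were low. *C1qb* had 11.2 ± 0.669 TPM, *Cx3cr1* 3.62 ± 0.317, *P2ry12* 2.98 ± 0.702 and *Aif1* 1.03 ± 0.829 TPM. *Kdr*, the receptor of vascular endothelial growth factor, led the endothelial list with 116 ± 4.86 TPM, and *Rgs5* the mural list with 53.8 ± 7.05 TPM.

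Markers of neighbouring tissues were low but measurable. The lens list, 19 genes, mostly crystallins, held 0.0360 ± 0.00231% of TPM, and 18 of the 19 reached a mean of 1 TPM. Its highest member, *Cryaa*, which retinal cells also express, had 79.3, 95.7 and 68.3 TPM. The list of pigment epithelium and melanin genes held 0.00461%, 0.00556% and 0.00252% in replicates 1, 2 and 3, and *Rpe65*, the isomerase of the visual cycle, had 3.47, 4.47 and 1.03 TPM. Of its 11 genes, 4 were below 1 TPM, with *Tyr* the lowest at 0.285 ± 0.173. The blood list held 0.0165 ± 0.00156%, led by *Hba-a2* with 104, 140 and 165 TPM. The list counts *Hbb-bs* but not *Hbb-b1*, which is listed at the same place. With both, an alternative chosen after seeing the data, it held 0.0164%, 0.0197% and 0.0252% in replicates 1, 2 and 3, and replicate 1 in place of replicate 2 was lowest. The oligodendrocyte list held 0.00360%, with *Mbp* at 22.7 ± 0.415 TPM and *Mobp* listed at 0 in all 3 libraries.

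Agreement between libraries was close and depended on the level of the gene. Over the 15153 genes with a mean of at least 1 TPM, Pearson's r of log2(TPM + 1) was between 0.988 and 0.990 for the 3 pairs of libraries, and the median size of the log2 difference was between 0.12 and 0.13. These are correlations across genes, which are not independent replicates. The median CV was 7.77%. By level it was 17.2% for 4288 genes from 1 to 10 TPM, 6.83% for 8767 from 10 to 100, 4.91% for 2027 from 100 to 1000 and 4.88% for 71 above 1000. Below, from 0.1 to 1 TPM, it was 60.1%. The highest and the lowest library differed more than 2-fold, after 1 TPM was added to each, in 345 genes (2.28%), of which 292 lay between 1 and 10 TPM.

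The spread of the class genes differed between lists. The median CV was 5.32% in the rod list, 5.02% in the shared photoreceptor list, 6.03% in the cone list, 7.54% in the bipolar list, 5.29% in the RGC list, 7.35% in the Müller list, 6.999% in the amacrine list and 6.67% in the endothelial list. It was above the 7.77% of all genes in the horizontal (10.9%), astrocyte (10.8%), mural (14.6%) and microglial (23.6%) lists. Their median levels were 6.64, 10.6, 3.69 and 2.98 TPM. The horizontal and mural values lay below the 17.2% of all genes from 1 to 10 TPM, and the microglial value above it. The astrocyte value lay above the 6.83% of all genes from 10 to 100 TPM. The shared photoreceptor, cone, bipolar and Müller lists had median levels between 100 and 1000 TPM. Their median CVs exceeded the 4.91% of all genes at that level, by least in the shared photoreceptor list. The rod list, with a median level of 2231 TPM, exceeded the 4.88% of genes above 1000 TPM. The 12 genes often used as references had a median CV of 4.79%. Among them, *Ppia* stood at 1699 ± 132 TPM, *Gapdh* at 645 ± 25.1, *Actb* at 511 ± 19.6, *Hprt* at 304 ± 12.4 and *Tbp* at 64.3 ± 4.21. *B2m* had the highest CV of the 12, 7.81%. The smallest CV among the 4702 genes of at least 50 TPM was 0.0624%, in the clock gene *Per3* with 74.4, 74.5 and 74.4 TPM. As the extreme of 4702 genes measured in 3 libraries, this gives no measure of stability.

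**Figure D3:**
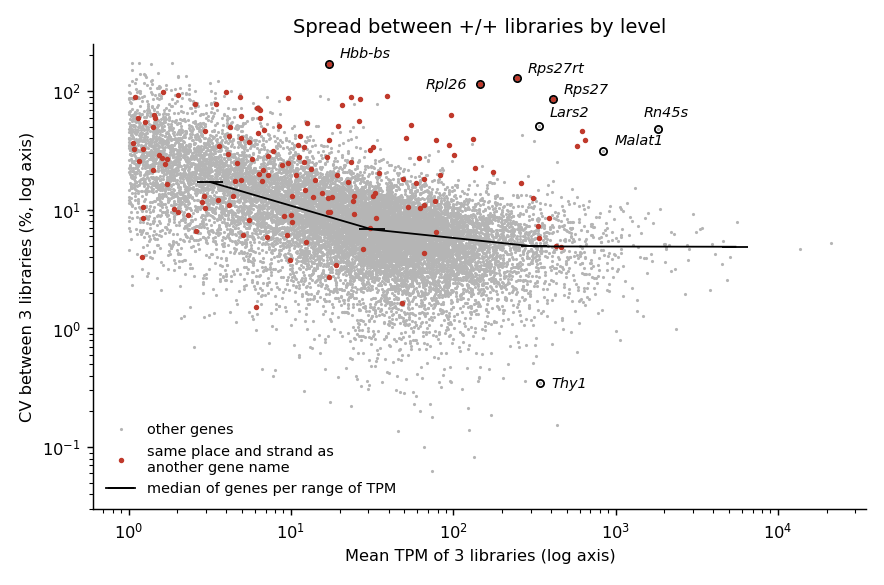
CV between the 3 +/+ libraries (vertical log axis, percent) against mean TPM (horizontal log axis) for 15153 genes, 1 point per gene, with red points for genes whose row lies at the same place and strand as the row of another gene name and a line through the median of 4 ranges of TPM. The median falls from 17.2% to 4.88% with level, and *Rps27*, *Rps27rt*, *Rpl26* and *Hbb-bs* stand at 85.4% to 170.0%, far above the line.

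The largest spread among well expressed genes lay in genes listed at the same place under different names. Of the 20 most variable genes with at least 10 TPM, 12 had a row whose start and end overlapped those of another gene name by at least 90% of the longer row on the same strand. *Rps27*, a protein of the small ribosomal subunit, had 7.99, 574 and 648 TPM, while *Rps27rt*, listed over the same bases on the minus strand of chromosome 3 (*Rps27* from 90212667 to 90213648 of mm10, *Rps27rt* from 90212667 to 90213647), had 604, 118 and 13.8 TPM. The pair therefore moved in opposite directions, and its sum was 612, 693 and 661 TPM, with a CV of 6.23%. *Rpl26* of the large subunit had 19.4, 81.2 and 338 TPM and *Gm15772* at the same place 688, 708 and 349, with a CV of the sum of 7.45%. The nucleotidase *Entpd4* with *Entpd4b*, the complex I subunit *Ndufs5* with *Ndufs5-ps*, the urea cycle enzyme *Ass1* with *Gm5424* and the aldose reductase *Akr1b3* with *Gm6644* had sums with CVs of 4.63%, 3.88%, 5.47% and 5.71%. *Ndufs5-ps* has 2 rows, and its value also includes the row on chromosome 16, away from *Ndufs5*.

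The following counts cover all such genes and include the pairs named above, which were taken from the most variable genes. Of the 78 genes with at least 10 TPM at the same place as another gene name, 19 ranged over more than 2-fold (24.4%), against 7 of 909 with another overlap on their strand (0.770%) and 27 of 9878 with none (0.273%). There were 45 pairs at the same place in which a member had at least 10 TPM and the other at least 1. The median of the larger CV of a pair was 28.3% and the median CV of the sum 7.80%. Of 32 pairs in which a member had a CV over 20%, 21 had a sum with a CV under 10%. This count includes pairs with a steady member, such as *Tdg* (CV 1.65%) with *Tdg-ps2* (97.7%), whose sum had a CV of 4.10%. A steady sum therefore does not by itself show that the members moved in opposite directions. The sum of a pair cannot have a CV above the larger of its members. How the quantification divided reads between such names was not tested, and the level of either member is uncertain.

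**Figure D4:**
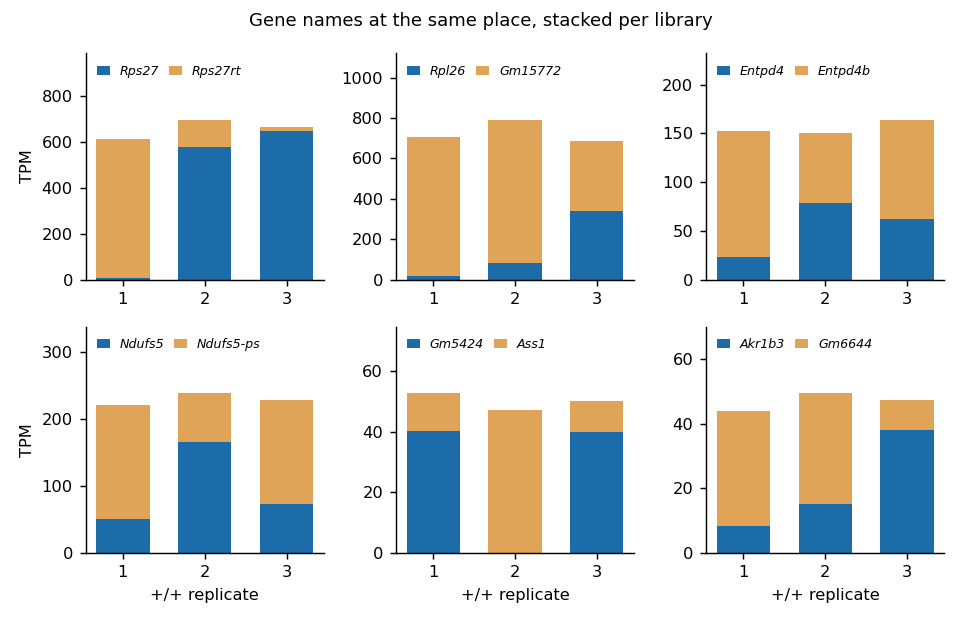
TPM of 6 pairs of gene names at the same place, stacked for each +/+ library (linear axis from 0, 1 panel per pair). The value of *Ndufs5-ps* also includes a row on chromosome 16. The division within a bar changes between libraries, in *Rps27* from 7.99 to 648 TPM, while the height of the bar changes little.

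Other variable genes had no such partner with a steady sum. *Hbb-bs* (50.7, 0.634 and 0 TPM) and *Hbb-b1* (0.601, 46.3 and 70.3 TPM), beta globins of red cells listed at the same place, summed to 51.3, 46.9 and 70.3 TPM, highest in replicate 3 as was *Hba-a2*. *Eps8l1* had 0.143, 27.4 and 18.0 TPM with no overlap on its strand. The 45S ribosomal precursor *Rn45s* had 2220, 827 and 2416 TPM, and *Lars2*, a mitochondrial leucyl-tRNA synthetase, 366, 152 and 496. *Rpph1*, the RNA of ribonuclease P, had 34.4, 7.07 and 59.9 TPM and *Rmrp*, the RNA of ribonuclease MRP, 32.7, 3.58 and 14.6. All 4 were lowest in replicate 2. *Malat1*, a nuclear long noncoding RNA, was instead highest in replicate 3, with 690, 689 and 1149 TPM, where *Neat1* was lowest with 41.6, 41.4 and 18.8.

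The libraries deviated from the mean of the 3 in different gene lists. In log2(TPM + 1), the median deviation of all 15153 genes was 0.02, -0.03 and 0.02 in replicates 1, 2 and 3. Replicate 1 was low in genes of the cytosolic ribosome, where 9 of 84 lay above the mean, against 68 in replicate 2 and 58 in replicate 3. For nuclear-encoded respiratory chain genes, 25, 82 and 49 of 94 lay above the mean. Over all genes, the share above the mean was 8528, 5804 and 8461 of 15153. Replicate 1 was also high in bipolar genes, with 14 of 17 above the mean, against 9 and 5 in replicates 2 and 3, and in cone genes, with 10 of 11, against 6 and 1.

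Replicate 2 stood out in genes linked to gliosis, the reaction of retinal glia to stress. All 9 members with a mean of at least 1 TPM lay above the mean in replicate 2, against 1 in replicate 1 and 3 in replicate 3. Over all genes, 8528, 5804 and 8461 of 15153 lay above the mean in replicates 1, 2 and 3. Some gaps were small, as in *C4b* with 8.63, 9.63 and 8.50 TPM. *Edn2*, an endothelin made by stressed photoreceptors, had 16.4, 26.5 and 15.6 TPM, *Fgf2* 11.1, 17.3 and 8.18, *Cebpd* 8.52, 13.6 and 8.96, and *Stat3* 46.6, 57.4 and 53.6 TPM, and *Gfap*, as given above, was likewise highest in replicate 2. *Lcn2*, with 5.49, 8.82 and 9.30 TPM, was instead highest in replicate 3. The tenth member, *Ccl2*, was listed at 0 throughout. The 7 pigment epithelium genes of at least 1 TPM also all lay above the mean in replicate 2, and none did in replicate 3. Whether the share of pigment epithelium moves the gliosis genes was not tested. In replicate 3, 1 of 14 Müller genes and 1 of 11 cone genes lay above the mean, and 11 of 13 immediate early genes did.

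Length and base composition moved with these deviations. Over 14824 genes with a transcript sequence, the deviation of replicate 1 correlated with the length of the longest transcript with a Spearman coefficient of 0.255, that of replicate 2 with -0.222 and that of replicate 3 with -0.0671. With GC content, the coefficient was -0.360, 0.00874 and 0.351. The ribosomal and respiratory chain lists were low in replicate 1 and high in replicate 2. These are descriptions across genes of the same libraries, and the part of length or GC content in the deviations of the lists was not tested.

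**Figure D5:**
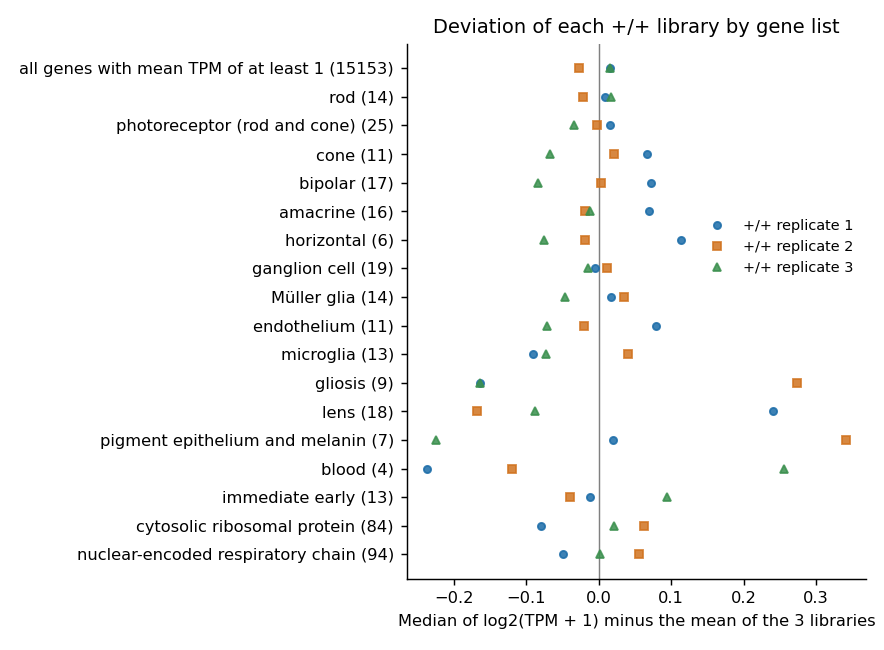
Median deviation of log2(TPM + 1) of each +/+ library from the mean of the 3 libraries (horizontal axis, 0 marked by a line), for all genes and for 17 gene lists, with the number of genes of at least 1 TPM in parentheses. Gliosis and pigment epithelium genes lie to the right in replicate 2, lens genes in replicate 1 and blood genes in replicate 3, while rod and RGC lists stay within 0.03 of 0 in every library.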

How the data were processed

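RNA-Seq of whole retina was analysed in the 3 +/+ libraries, grouped by the genotype in their labels. Per the study's methods and the labels, RNA was extracted with Trizol, polyadenylated RNA was selected, and libraries made with a directional kit were read from both ends with 150 bases. The authors trimmed reads with Trimmomatic, checked them with FastQC, aligned them to mm10 with HISAT2, handled alignments with SAMtools and quantified genes with StringTie. Versions and the annotation are not given in the sources used here. The TPM that the authors deposited sum to 1000000 per library. The deposited FPKM is the value per gene length and depth before that scaling and served as an alternative. The deposited coverage signal is the mean number of reads over the bases of a gene. Since read counts were not used here, the counting error of a gene cannot be had, and the spread of 3 libraries set the precision. Coverage divided by FPKM took a common value of 4.34, 4.64 and 4.13 in replicates 1, 2 and 3, over 56.8% to 56.9% of rows with a coverage above 5, which measures relative depth.

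TPM were summed over rows with the same gene name, of which 174, 162 and 174 names per library had several rows. Deviations were taken on log2(TPM + 1), which understates changes of low genes. Gene types came from RefSeq (25144 of 25239 names matched), transcript length and GC content from GENCODE M21. Marker lists, the motif and the genes named were chosen with earlier results of these data known. Named genes are the 30 of highest mean TPM, the 5 markers, the highest 5, the lowest and the under-1-TPM members of each list, the 20 most variable of at least 10 TPM, the 10 of smallest CV of at least 50 TPM, the reference and sex-linked genes, and those at 0 in 1 library and at 10 TPM in another. Other genes named, among them list members outside this rule, the partners at the same place, Rn45s and Mir3064, were chosen after their values were seen. Functions were tested on simulated data. Alternatives were other TPM limits, the highest row per name, totals without ribosomal RNA or short RNA genes, lists without their highest member, medians, median-ratio scaling, FPKM, a pseudocount of 0.1 and each library left out. Python 3.11.15 with pandas 2.3.3, numpy 2.4.6 and matplotlib 3.10.9 was used. Knock-in libraries were not analysed here, and some genes that the rule names are not reported here.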

Additional observations from a re-analysis of the deposited data

How the results depend on the processing

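Of 128 alternative values, 104 stayed within the spread between libraries or, for counts, within 1.5 times the value reported. For the shares of lists, taking the median or leaving out 1 library cannot move the mean of 3 libraries by a full SD. Those alternatives could only stay within the spread, so the count of 104 is no measure of robustness. Leaving out the highest member, which removes TPM by construction, lowered the share of TPM to 3.90% in the rod list, 3.40% in the shared photoreceptor list, 0.407% in the Müller list, 0.280% in the cone list, 0.179% in the bipolar list, 0.175% in the RGC list, 0.101% in the amacrine list and 0.00415% in the horizontal list. The median CV was 9.10% with a limit of 0.1 TPM and 6.36% with a limit of 10 TPM, and lay between 6.30% and 6.92% when 1 library was left out. Genes with a range over 2-fold numbered 731 with a pseudocount of 0.1, 535 with a limit of 0.1 TPM, 53 with a limit of 10 TPM, and between 159 and 202 when 1 library was left out, where fewer samples span less. Without genes at the same place as another name, an alternative chosen after seeing the data, 306 remained and the median CV was 7.72%. No paired analysis was possible because no groups were compared. The counting error of single genes cannot be had from TPM, and below 1 TPM, where the coverage was under 1.4 reads per base, the CV gives little on single genes. Libraries shared a genotype, and nothing in the labels states that they were separate animals. The study's methods describe 3 repeats with a pair of retinas per library, and at least 3 animals in each group. The spread between animals and the technical spread cannot be told apart here.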

Other observations

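Genes of the circadian clock were all expressed, with 15 of 15 listed members at 1 TPM or more and 0.161 ± 0.00366% of TPM. The nuclear receptor *Nr1d1* led with 267, 262 and 312 TPM, followed by *Dbp* (237 ± 15.7 TPM), while *Per1*, *Per2* and *Per3* had 98.8 ± 4.03, 24.7 ± 0.551 and 74.4 ± 0.0465 TPM. The lowest was *Npas2*, with 1.88 ± 0.0958 TPM. Of the 15 genes, 10 lay above the mean in replicate 3, against 6 each in replicates 1 and 2, beside 8461 of all 15153 genes in replicate 3, so that nothing particular to the clock is read from it. Immediate early genes were led by *Btg2* (118 ± 4.60 TPM), *Nr4a1* (60.8 ± 2.89 TPM) and *Fos* (46.6, 50.4 and 56.1 TPM). *Jun* had 40.5, 41.0 and 58.9 TPM, highest in replicate 3.

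Of the 15 long noncoding RNAs of the list, *Malat1* (842 ± 265 TPM), *Meg3* (789 ± 30.9 TPM) and *Snhg11* (756 ± 65.9 TPM) led, with *Vax2os*, the antisense partner of a dorsoventral patterning gene, at 463 ± 13.8 TPM. The host gene of a miR-124 copy, *Mir124a-1hg*, which is not in the list, was higher and ranked 42 of all genes with 1470, 1423 and 1356 TPM. The row of *Mir3064*, a microRNA gene whose 67 bases lie inside *Ddx5* on the same strand, ranked 60 with 1140, 1072 and 1040 TPM, beside 1513, 1472 and 1337 TPM of *Ddx5* itself. These libraries were made from polyadenylated RNA, and reads of *Ddx5* and of *Mir3064* cannot be told apart there.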
